A study of Mus musculus with 6 samples.

Results

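Folate uptake and one-carbon metabolism were described by 8 genes, picked by name: the reduced folate carrier *Slc19a1*, the proton-coupled folate transporter *Slc46a1*, the folate receptors *Folr1* and *Folr2*, and the enzymes *Mthfd1*, *Mthfd2*, *Shmt1* and *Shmt2*. All 8 were found by symbol among the 33460 genes of the deposited files. RNA-seq was performed on 6 samples from brains of mice at postnatal day 6 that carried both reporters, *NG2-DsRed* and *Pdgfrb-eGFP* (line Tg(Pdgfrb-eGFP)JN169Gsat/Mmucd), so that sorted cells and controls shared the same genotype and age. The first group was made of 3 samples of FACS sorted double positive mural cells, and the second of 3 samples of microvascular fragments pulled down with anti-CD31 beads, which hold both endothelial and mural cells. According to the methods, each of 3 brains was split, with 1 side going to FACS and the other to the fragments. The gate selects on promoter activity of *Pdgfrb* and NG2, so pericytes of capillaries were sorted together with mural cells of arterioles and venules, of which those with weak DsRed, described in the study, may be missing.

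Folates carry single-carbon units for the synthesis of purines, thymidylate and methionine, and mammalian cells cannot make them. The reduced folate carrier exchanges reduced folates for organic anions at the plasma membrane, the proton-coupled transporter works best at acidic pH, and the receptors bind folate tightly and take it up by endocytosis. In brain, the choroid plexus is known to pass folate into the cerebrospinal fluid with the *Folr1* receptor, while *Folr2* is known from macrophages. Inside cells the pathway runs in parallel in the cytosol (*Shmt1*, *Mthfd1*) and in mitochondria (*Shmt2*, *Mthfd2*), with serine as the main carbon donor.

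Values are FPKM, which count sequenced fragments relative to transcript length and library size, a level per length that can be compared between genes. Differences were tested with limma on log2(FPKM + 1) over 14801 genes, those that reached an FPKM of 1 in 3 or more samples, with Benjamini-Hochberg adjustment over all of them. A gene was called at an adjusted p under 0.05. Depth on protein-coding genes, recovered from the FPKM, was approximately 5.43 to 5.95 M fragments in the microvascular samples and 1.04 to 2.37 M in the mural cell samples. These are numbers after the authors removed duplicates, and are smaller than the number of reads that the study gives as sequenced per sample. Low values in mural cells thus rest on few fragments. All 12 mural markers were higher in the sorted cells, with ratios of mean FPKM from 6.47 to 12.5. They were *Pdgfrb*, *Cspg4*, *Rgs5*, *Kcnj8*, *Abcc9*, *Anpep*, *Notch3*, *Cd248*, *Des*, *Acta2*, *Myl9* and *Mylk*. The gate itself selects on *Pdgfrb* and *Cspg4* (NG2), and the study named *Myl9* and *Mylk* from a comparison that includes these libraries. The rise of this list is therefore no independent check of purity. Markers of other cells were present too: the 12 endothelial markers kept a median of 68.5% of their level in the fragments, 6 of the 7 fibroblast markers tested were higher in the sorted cells, and the astrocyte markers summed to 245, 210 and 696 FPKM in mural cell samples 1, 2 and 3 against 292 to 405 in the fragments. In such bulk samples, fewer cells of a type and less RNA per cell cannot be told apart.

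Of the 8 genes, 1 was higher in mural cells (*Slc19a1*), 2 were lower (*Folr1* and *Folr2*), and 5 did not pass the test. Over all genes tested, 9.34% were called higher and 13% lower, so a count of 1 and 2 among 8 genes is near the background. The same 3 genes also differed by more than 2-fold in mean FPKM, as did 6.43% of all genes tested in the higher and 10.1% in the lower direction. The median log2 difference was -0.66 for the 8 genes and -0.12 for all genes tested. Quantile normalization moved the latter to 0.01, and the differences given here can be read against that shift.

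**Figure D1:**
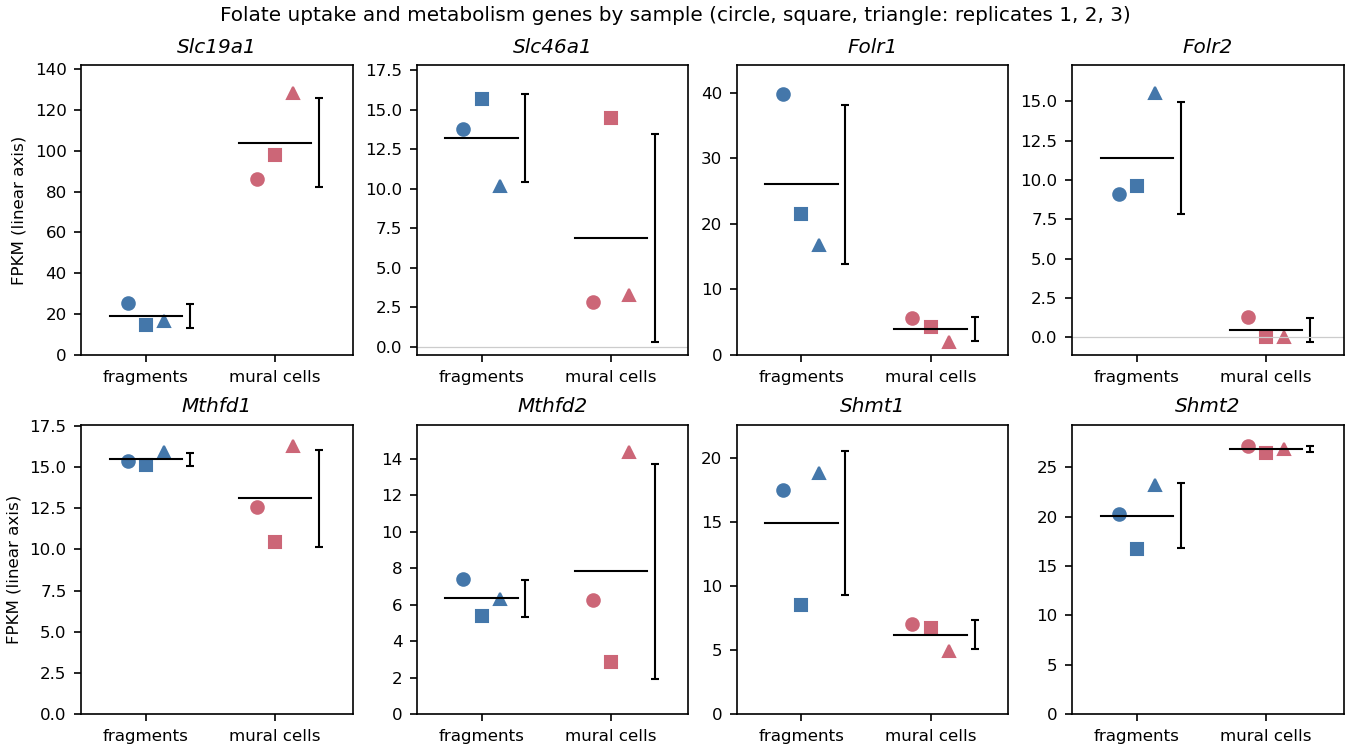
FPKM (linear axes, 1 panel per gene) of the 8 genes in the 3 samples of microvascular fragments (blue) and the 3 of sorted mural cells (red), with the group mean (line) and the mean ± SD (bar to the right), and circles, squares and triangles for replicates 1, 2 and 3. *Slc19a1* lies between 86.1 and 128 in mural cells and between 14.8 and 25.7 in fragments, while *Folr1* and *Folr2* lie lower in every mural cell sample and *Mthfd1*, *Mthfd2* and *Slc46a1* overlap.

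*Slc19a1*, the only one of the 8 genes that was higher in mural cells, encodes the reduced folate carrier. It lies on the plus strand of chr10:76494986-76523747 in NCBIM37 (ENSMUSG00000001436) and has 9 annotated transcripts. The gene overlaps the opposite-strand gene *Col18a1*, which had a mean FPKM of 220 in mural cells and 105 in fragments, and the 2 genes share 0 exon bases. RefSeq gives the carrier 2 transcription starts. The 250 bases before each were matched to NCBIM37 at a single place, and both lie inside the annotated gene, downstream of its most upstream exon. The bases outside annotated exons of the gene are shown, because this is the member that rose, beside the same stretch of *Slc46a1*, the other plasma membrane transporter, and of *Folr2*, the gene that fell most. Capitals mark a GC box (GGGCGG or its reverse complement CCGCCC), the recognition sequence of Sp factors, and all are written 5′ to 3′ on the strand of the gene.
*Slc19a1* start 1, chr10:76495234-76495428, plus strand: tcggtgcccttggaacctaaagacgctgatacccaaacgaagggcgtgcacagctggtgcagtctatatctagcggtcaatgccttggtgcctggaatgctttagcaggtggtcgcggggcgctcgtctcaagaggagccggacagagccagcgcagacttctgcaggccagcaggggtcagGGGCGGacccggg
*Slc19a1* start 2, chr10:76495707-76495956, plus strand: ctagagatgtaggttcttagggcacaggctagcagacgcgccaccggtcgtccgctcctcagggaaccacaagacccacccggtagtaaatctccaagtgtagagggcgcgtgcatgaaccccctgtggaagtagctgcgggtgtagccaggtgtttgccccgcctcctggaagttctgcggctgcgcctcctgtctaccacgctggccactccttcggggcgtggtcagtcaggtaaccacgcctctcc
*Slc46a1*, chr11:78278953-78279198, plus strand: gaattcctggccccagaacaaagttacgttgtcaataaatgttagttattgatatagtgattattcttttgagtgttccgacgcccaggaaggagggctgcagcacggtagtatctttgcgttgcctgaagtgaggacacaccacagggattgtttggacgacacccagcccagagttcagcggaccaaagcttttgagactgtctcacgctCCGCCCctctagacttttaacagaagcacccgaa
*Folr2* start 2, chr7:108993846-108994095, minus strand: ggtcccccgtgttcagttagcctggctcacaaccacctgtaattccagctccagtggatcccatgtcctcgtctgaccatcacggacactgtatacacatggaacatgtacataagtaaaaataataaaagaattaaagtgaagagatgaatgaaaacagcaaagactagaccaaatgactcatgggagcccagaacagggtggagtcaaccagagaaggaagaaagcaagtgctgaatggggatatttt

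Both 250-base windows of *Slc19a1* hold 16 CpG dinucleotides, and 25.4% of the 32851 RefSeq windows of this length hold as many or more. The window of *Slc46a1* holds 11, and those of *Folr2* hold 2 and 3, against a median of 6. A GC box was found in 32.7% of all windows, on either strand. The first window of *Slc19a1* holds 2, of which 1 is in the printed part, that of *Slc46a1* holds 1, and the second *Slc19a1* window and both *Folr2* windows hold 0. Among the enzyme genes, the windows of *Shmt1* and *Mthfd1* hold 4 and 1, and those of *Shmt2* and *Mthfd2* hold 0. These are matches of letters in a window and say nothing of binding.

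In the sorted mural cells *Slc19a1* had an FPKM of 86.1, 97.8 and 128 in samples 1, 2 and 3, against 25.7, 14.8 and 16.5 in the fragments. Every mural cell sample lay far above the highest fragment sample, and the groups did not overlap. The means were 104 ± 21.7 and 19.0 ± 5.83 (SD, n = 3 each), with a log2 difference of 2.41 (standard error 0.24, adjusted p = 5.3e-04 from limma). The values rest on approximately 407, 194 and 269 fragments in mural cells and 312, 167 and 205 in the microvascular samples, and the pooled ratio of 5.18 had a counting interval of 4.68 to 5.73 (95%, exact binomial, counting error only).

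The ratio of mean FPKM of *Slc19a1*, 5.47, was below that of each of the 12 mural markers, a list that includes the genes of the gate, *Pdgfrb* and *Cspg4*. Relative to the summed FPKM of these 12 markers, its level was 2.08%, 1.79% and 2.85% in the mural cell samples and 4.14%, 2.53% and 4.10% in the fragments, so that samples of the groups overlapped on this scale. Fibroblast markers, with a summed FPKM of 502 to 689 in mural cells and 62.3 to 71.6 in fragments, moved in the same direction, and their part in the carrier's level was not tested. Most of that sum came from the collagen genes *Col1a1*, *Col1a2* and *Col3a1*, with mean FPKM of 111, 221 and 213 in mural cells. The study lists *Col1a2* and *Col3a1* in its catalogue of genes enriched in mural cells, which combines these libraries with earlier published studies. *Slc19a1* is in that catalogue too. With *Myl9* and *Mylk*, it was reported as identified by all the studies compared, and no other gene was. Those studies include work on pericyte-deficient mutants and on single cells. *Dcn* and *Lum* of the fibroblast list, at means of 29.3 and 7.80, were higher too, although the gate on both reporters was chosen to select mural cells. *Pdgfra*, also a marker of oligodendrocyte progenitors, rose less (ratio of mean FPKM 1.59, adjusted p = 0.048 from limma). *Slc6a13* did not pass (adjusted p = 0.45 from limma), and its FPKM of 1.25 in mural cell sample 3 lay below every fragment sample. *Dpt* was not tested.

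The genes whose profile over the 6 samples was most like that of *Slc19a1* were sought among 13414 other protein-coding genes, by the Euclidean distance between centred log2(FPKM + 1) values. The closest was *Rbpms2*, an RNA-binding protein gene known from smooth muscle, with a distance of 0.35 and an FPKM of 11.2, 17.0 and 19.7 in mural cells. *Mdk*, which encodes the growth factor midkine, had the same rounded distance of 0.35 and was close to *Slc19a1* in level as well, with an FPKM of 94.7, 91.7 and 124 in the sorted cells and of 27.5, 15.2 and 21.4 in the fragments. *C1qtnf2*, *Sp7* and *Tusc5* followed at distances of 0.42, 0.45 and 0.45.

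*Slc46a1*, the proton-coupled transporter (chr11:78279199-78285447, plus strand, ENSMUSG00000020829), did not pass the test. Its FPKM was 13.8, 15.7 and 10.2 in the fragments and 2.85, 14.5 and 3.26 in the mural cells. Mural cell samples 1 and 3 lay below all fragments, whereas sample 2 lay among them. The log2 difference was -1.15 (95% interval -2.39 to 0.09, adjusted p = 0.17 from limma), and without mural cell sample 2 it was -1.79 with an adjusted p of 0.0048 from limma, so this sample alone decided the call. The 3 mural cell values rest on approximately 9, 19 and 5 fragments.

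The receptors fell. *Folr1* (chr7:109006845-109019302, minus strand, ENSMUSG00000001827) had the highest mean of the 8 genes in the fragments, with an FPKM of 39.8, 21.6 and 16.8, and dropped to 5.63, 4.27 and 2.03 in the mural cells. The groups did not overlap, and the mean was 6.56-fold lower in mural cells, with a log2 difference of -2.43 (standard error 0.40, adjusted p = 0.0051 from limma). The mural cell values of *Folr1* rest on approximately 12, 4 and 2 fragments. Its pooled ratio of 0.18 had a counting interval of 0.10 to 0.28 (95%, exact binomial, counting error only). Choroid plexus markers fell with it: 5 of 8 were called lower, the list kept a median of 16.0% of its level in the fragments, and its summed FPKM was lower in every mural cell sample than in any of the fragments. In the fragments this sum was 1421, 909 and 664 in samples 1, 2 and 3, in the same order as *Folr1*. In the mural cells it was 203, 264 and 215, an order that differs from that of *Folr1*, which there rests on few fragments. The defining marker *Ttr*, which encodes transthyretin, made up most of these sums, so their order is mainly that of 1 gene. Its FPKM was 1358, 872 and 638 in the fragments and 195, 244 and 208 in the mural cells, and it was thus not absent there. *Prlr*, also in the list, did not fall (ratio of mean FPKM 1.41, not called). What part choroid plexus RNA has in the *Folr1* values was not tested.

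*Folr2* (chr7:108988512-108993831, minus strand, ENSMUSG00000032725), the neighbour of *Folr1* on chromosome 7, had an FPKM of 9.13, 9.60 and 15.5 in the fragments. It was at 1.32 in mural cell sample 1 and was listed at 0 in samples 2 and 3. The value of sample 1 rests on approximately 2 fragments, and the pooled ratio of 0.062 had a counting interval of 0.0074 to 0.23 (95%, exact binomial). The log2 difference was -3.19 (standard error 0.42, adjusted p = 0.0018 from limma), but the gene entered the test only through the fragments and its log2 difference depends on the pseudocount (-5.53 with 0.1). All 8 perivascular macrophage markers and all 8 microglia markers were lower as well, with medians of 8.71% and 8.59% of their level in the fragments and ranges of 0 to 23.7% and 7.08 to 11.0%. The macrophage markers summed to 150 to 243 FPKM in the fragments and to 10.1 to 29.8 in the mural cells, where *Cd209f* was listed at 0 in all 3 samples. By the ratio of mean FPKM, *Folr2*, at 0.039, lay below all 8 microglia markers (0.071 to 0.11) and below 7 of the 8 macrophage markers, while its counting interval given above includes the microglia range. Their part in the *Folr2* values was not tested.

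**Figure D2:**
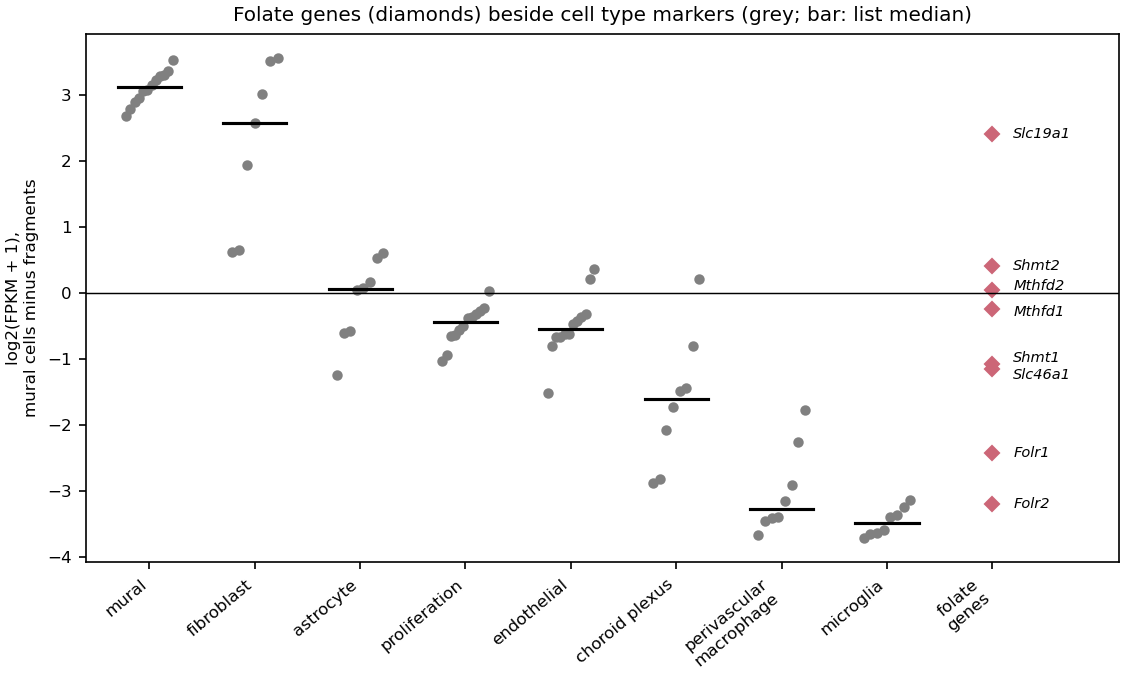
Differences in log2(FPKM + 1), mural cells minus fragments, of the tested marker genes of 8 lists (grey points, black bar for the list median) and of the 8 folate genes (red diamonds). *Slc19a1*, at 2.41, lies below all 12 mural markers and within the range of the fibroblast markers, *Folr1*, at -2.43, within the range of the choroid plexus markers, and *Folr2*, at -3.19, within the ranges of the macrophage and microglia markers on this scale, which depends on the pseudocount of 1.

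Balance between the transporters was examined within each sample. In the fragments the FPKM of *Slc19a1* was 1.86, 0.94 and 1.62 times that of *Slc46a1*, and in the mural cells it was 30.2, 6.75 and 39.3 times. On the log2(FPKM + 1) scale the difference between the genes was 0.47 ± 0.49 in fragments and 4.03 ± 1.2 in mural cells (SD, n = 3 each), with no overlap. The shift of 3.56 had an exact two-sided permutation p of 0.1 (0.15 after adjustment over the 3 balances), and 0.1 is the smallest p that 3 samples against 3 can give.

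The enzymes of the cytosol and of mitochondria were then compared. *Shmt1*, the cytosolic serine hydroxymethyltransferase (chr11:60601606-60625220, minus strand, ENSMUSG00000020534), had an FPKM of 17.5, 8.49 and 18.8 in the fragments and 7.04, 6.70 and 4.92 in the mural cells. Approximately 33, 13 and 10 fragments underlie the mural cell values. All mural cell samples lay below all fragments, but the log2 difference of -1.08 (95% interval -1.84 to -0.33) missed the threshold with an adjusted p of 0.051 from limma. Without fragment sample 2, the low one, it was -1.42 with an adjusted p of 0.016 from limma, and when genes below an FPKM of 5 were left out, or only protein-coding genes were tested, the adjusted p was 0.044. Under the other 11 alternatives it did not pass, with an adjusted p of up to 0.19 (without fragment sample 3, log2 difference -0.89). The opposite-strand gene *Smcr8* had a mean FPKM of 7.85 in mural cells and 24.7 in fragments. It shares 184 of the 3883 exon bases of *Shmt1*, in 1 of the 11 annotated *Shmt1* transcripts. Per the methods, the libraries were made with a stranded kit, but whether the authors counted by strand is not given in the sources used here.

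*Shmt2*, the mitochondrial serine hydroxymethyltransferase (chr10:126954195-126959491, minus strand, ENSMUSG00000025403), had an FPKM of 27.1, 26.5 and 26.9 in mural cells. This was the smallest SD of the 8 genes in the sorted cells, 0.325 FPKM over 3 samples. The values rest on approximately 100, 41 and 44 fragments, and a small SD over 3 samples at such counts does not show stable expression. In the fragments the values were 20.3, 16.7 and 23.2, below each mural cell sample. The log2 difference was 0.41 (95% interval 0.04 to 0.78) and did not pass the test (adjusted p = 0.11 from limma). Over all genes tested, 16.5% had every mural cell sample above every fragment sample and 24.5% had every one below. The neighbouring gene *Ndufa4l2*, which shares 14 exon bases with *Shmt2* on the other strand, had a mean FPKM of 91.1 in mural cells and 11.0 in fragments.

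Within samples, the FPKM of *Shmt2* was 3.86, 3.95 and 5.46 times that of *Shmt1* in the mural cells and 1.16, 1.96 and 1.24 times in fragments. The groups did not overlap. On the log2(FPKM + 1) scale the difference was 1.96 ± 0.24 in mural cells and 0.46 ± 0.38 in fragments (SD, n = 3 each), a shift of 1.5 towards the mitochondrial gene (exact two-sided permutation test, p = 0.1, adjusted p = 0.15).

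The MTHFD enzymes, which interconvert formyl, methenyl and methylene forms of tetrahydrofolate, overlapped between the groups. *Mthfd1*, the cytosolic enzyme (chr12:77356219-77420807, plus strand, ENSMUSG00000021048), had an FPKM of 15.4, 15.1 and 15.9 in the fragments and 12.6, 10.5 and 16.3 in the mural cells, with overlapping groups (log2 difference -0.24, 95% interval -0.71 to 0.22, adjusted p = 0.43 from limma). *Mthfd2*, the mitochondrial dehydrogenase and cyclohydrolase (chr6:83255685-83267600, minus strand, ENSMUSG00000005667), had an FPKM of 7.41, 5.38 and 6.32 in the fragments. Its values in the mural cells, 6.28, 2.89 and 14.4, spanned the whole range of the fragments and rest on approximately 21, 4 and 21 fragments. The log2 difference of 0.05 (95% interval -1.07 to 1.17, adjusted p = 0.95 from limma) turned to -0.46 without mural cell sample 3. That sample had the highest sums of astrocyte markers and of oligodendrocyte progenitor markers, whose part in the *Mthfd2* values was not tested. The within-sample difference of *Mthfd2* and *Mthfd1* was -0.88 ± 0.70 in mural cells and -1.17 ± 0.19 in fragments (SD, n = 3 each; exact two-sided permutation test, p = 0.6), and the shift of 0.29 changed to -0.060 without that sample.

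**Figure D3:**
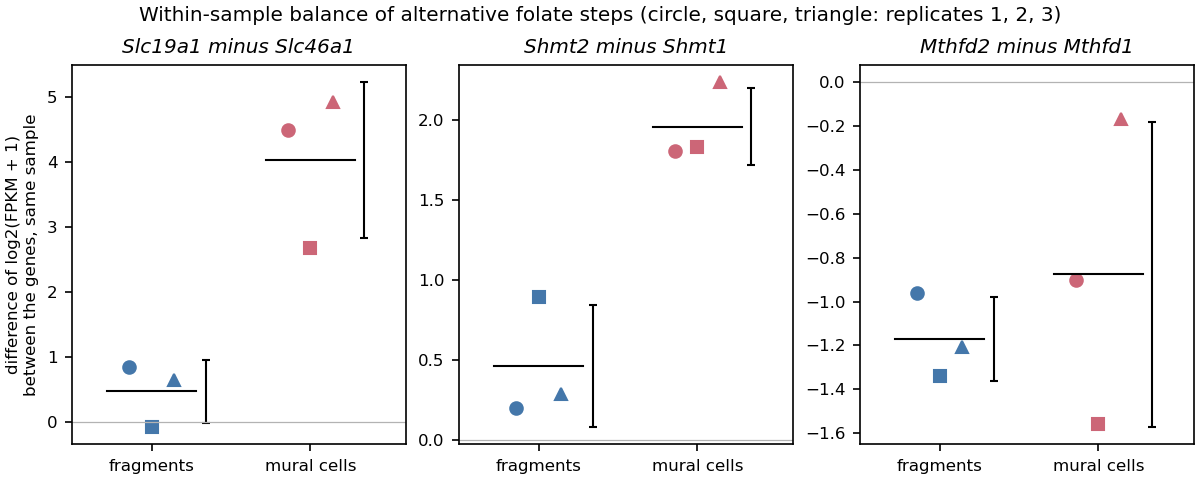
Difference in log2(FPKM + 1) between the genes of 3 pairs within each sample, for fragments (blue) and mural cells (red), with the group mean (line) and the mean ± SD (bar). The *Slc19a1* and *Shmt2* pairs do not overlap between the groups (means 4.03 against 0.47 and 1.96 against 0.46), and the *Mthfd2* pair overlaps.

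The order of the levels differed between the groups. In mural cells *Slc19a1* ranked first of the 8 genes, followed by *Shmt2* and *Mthfd1*, and the samples of these 3 genes did not overlap with one another. The genes from *Mthfd1* down to *Folr1* could not be ordered beyond the spread of neighbours, and *Folr2* was lowest without overlap. In the fragments the first 7 genes, from *Folr1* with a mean of 26.1 to *Folr2* with 11.4, each overlapped with the next, and only *Mthfd2*, at 6.37, was apart from its neighbour.

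Other genes of the pathway were taken from a list of 46, of which 39 were tested. One-carbon genes other than the 8 changed in few cases: 1 was higher, 5 were lower and 33 did not pass, beside the background of 9.34% higher and 13% lower given above. The median log2 difference was -0.10, against -0.12 for all genes tested.

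**Figure D4:**
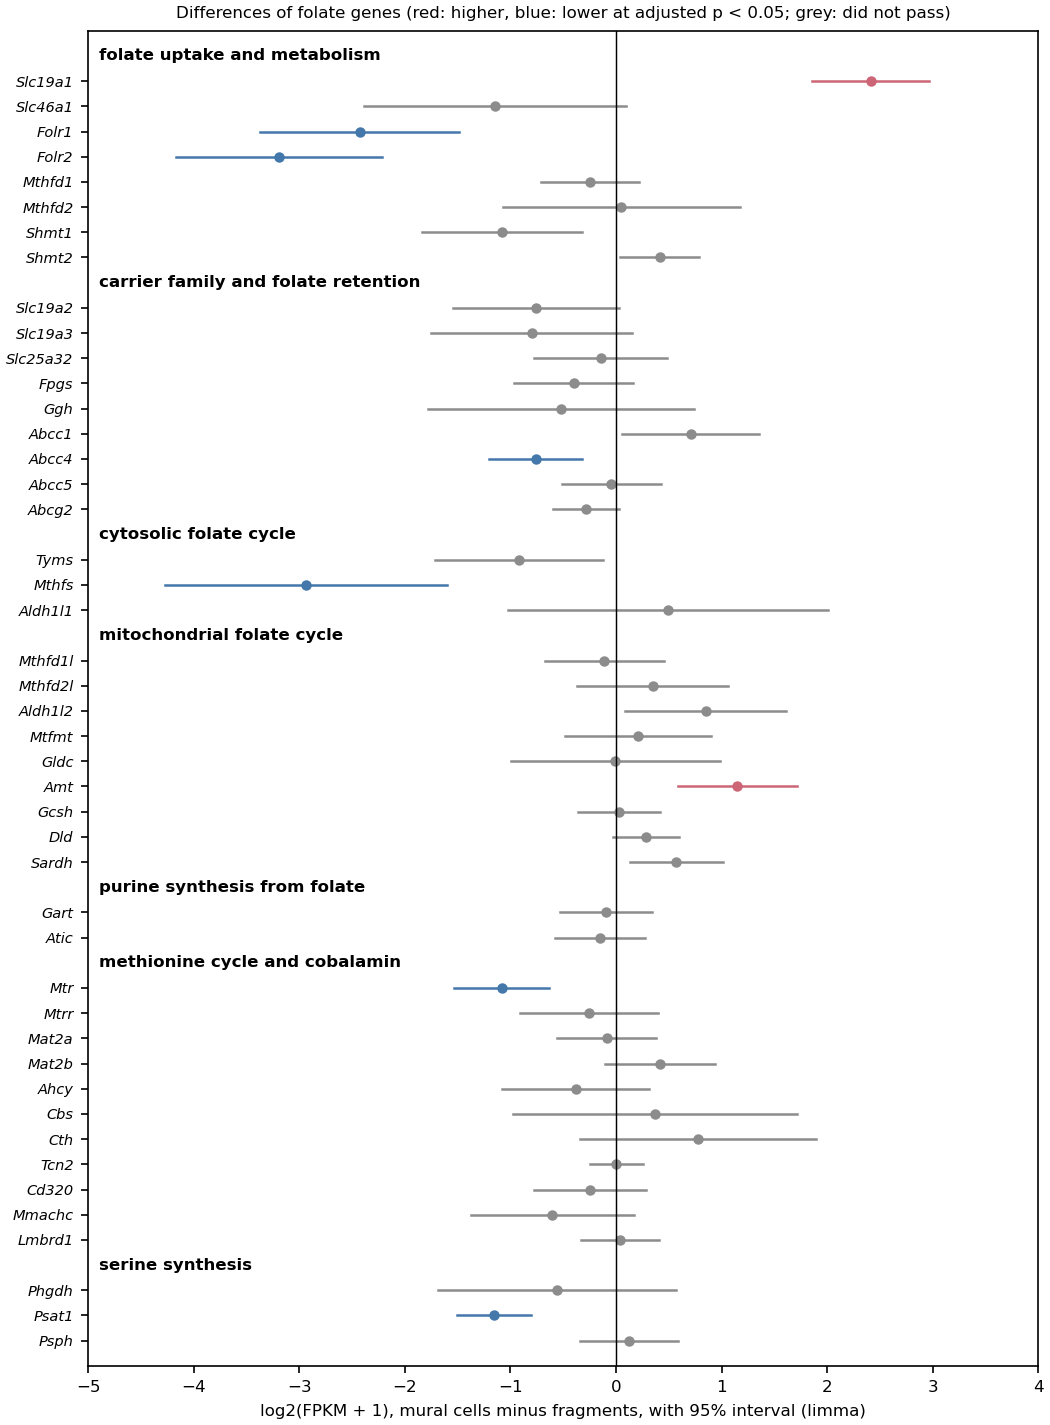
Difference in log2(FPKM + 1), mural cells minus fragments, with its 95% interval from limma, for the 8 genes and the genes of the pathway list that are reported here. *Slc19a1* and *Amt* (red) were called higher, and *Folr1*, *Folr2*, *Abcc4*, *Mthfs*, *Mtr* and *Psat1* (blue) lower.

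The family of the carrier and the genes that keep folate in the cell gave 0 higher and 1 lower of 9 tested, beside 9.34% and 13% of all genes tested. *Slc19a2* and *Slc19a3*, which despite their name transport thiamine, had log2 differences of -0.76 and -0.80 that did not pass the test (adjusted p = 0.16 and 0.21 from limma). *Slc25a32*, the mitochondrial folate carrier, was at -0.15, *Fpgs*, which adds the glutamate tail that traps folate, at -0.40, and *Ggh*, which removes it, at -0.52. The exporter gene *Abcc4* was lower, with an FPKM of 29.4, 32.3 and 24.9 in fragments and 20.6, 14.2 and 15.4 in mural cells (log2 difference -0.76, adjusted p = 0.026 from limma), but the call was lost when any of 5 samples was left out (adjusted p up to 0.12).

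Among the genes of the cytosolic cycle, *Mthfs*, which returns 5-formyltetrahydrofolate to the active pool, was lower in mural cells, with an FPKM of 31.1, 18.6 and 28 in fragments and 0.45, 6.66 and 2.68 in the sorted cells (log2 difference -2.93, standard error 0.57, adjusted p = 0.010 from limma). Like *Folr2* it reached the filter through the fragments, and its log2 difference depends on the pseudocount (-3.55 with 0.1). The mural cell values rest on approximately 1, 6 and 3 fragments. *Tyms*, which makes thymidylate, did not pass (log2 difference -0.92, adjusted p = 0.097 from limma). Of 12 proliferation markers 3 were lower and 0 higher, beside 13% and 9.34% of all genes tested, with a median of 72.6% of the level in the fragments.

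*Aldh1l1*, the cytosolic formyltetrahydrofolate dehydrogenase that is also used as an astrocyte marker, had an FPKM of 16.8, 8.66 and 63.4 in the mural cells and 11.7 to 22.1 in the fragments. The high value was in mural cell sample 3. *Phgdh*, the first enzyme of serine synthesis, had 16.7, 19.6 and 67.4 FPKM in the sorted cells, again highest in sample 3. Its fragment values were 35.4, 48.2 and 43.8. Mural cell samples 1 and 2 thus lay below every fragment sample, and sample 3 lay above. *Cbs*, which draws homocysteine into cysteine synthesis, was at 12.4, 4.75 and 26.3 in mural cells, and its fragment values ranged from 6.40 to 15.2. None of these genes passed the test, but *Phgdh* was called lower when mural cell sample 3 was left out. The sum of the astrocyte markers was highest in the same sample (696 FPKM). So was that of the oligodendrocyte progenitor markers, at 49.5, 38.0 and 91.1 in mural cell samples 1, 2 and 3. Not every marker followed: *S100b* of the astrocyte list and *Sox10* of the progenitor list were lowest in sample 3 among the mural cell samples. The part of either cell type in these values was not tested.

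In the mitochondrial part, 1 of 9 genes tested was higher and 0 were lower, beside 9.34% and 13% of all genes tested, so the count of higher genes is near the background. The median log2 difference was 0.28, against -0.12 for all genes tested. *Amt*, the aminomethyltransferase of the glycine cleavage system, had an FPKM of 25.2, 21.7 and 19.4 in the mural cells, against 10.9, 11.4 and 6.52 in the fragments. The samples did not overlap, and the ratio of means was 2.30 (log2 difference 1.15, standard error 0.24, adjusted p = 0.014 from limma). The other parts of that system, *Gldc*, *Gcsh* and *Dld*, were at -0.01, 0.03 and 0.28 and did not pass. *Sardh*, which releases a carbon unit from sarcosine, had every mural cell sample above every fragment sample without passing the test (adjusted p = 0.069 from limma).

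Methionine cycle and cobalamin genes gave 0 higher and 1 lower of 11 tested, beside 9.34% and 13% of all genes tested. *Mtr*, methionine synthase, which takes the methyl group from 5-methyltetrahydrofolate, had an FPKM of 18.7, 21.4 and 22.1 in fragments and 10.5, 7.38 and 10.1 in mural cells (log2 difference -1.08, standard error 0.19, adjusted p = 0.0070 from limma). Its partner *Mtrr* was at -0.26 and did not pass, and *Tcn2*, the cobalamin carrier of plasma, was at 0.00 (95% interval -0.25 to 0.25). Among the genes of serine synthesis, *Psat1*, the phosphoserine aminotransferase, fell from 42.3, 39.9 and 52.9 FPKM in fragments to 19.2, 20.4 and 18.8 in mural cells (log2 difference -1.16, standard error 0.15, adjusted p = 0.0017 from limma), whereas *Psph* was at 0.12 and did not pass. The purine synthesis genes *Gart* and *Atic* were at -0.10 and -0.15 and did not pass either.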

How the data were processed

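The authors deposited 1 file per sample, which lists Ensembl genes with their FPKM. Per the methods and labels, paired-end 125 bp reads were aligned to NCBIM37 with TopHat2 2.0.4, duplicates were removed with Picard 1.92 and FPKM were computed with Cufflinks 2.2.1. Per the methods, the indexed libraries of all 6 samples shared 1 sequencing lane. The samples were kept separate here, and any scaling between libraries is not given in the sources used here. FPKM are not counts, so the linear model of limma (version 3.58.1, R 4.3.3), with the variance trended on mean level, was applied to log2(FPKM + 1) and tested on simulated data. Repeated identifiers, whose values were identical, were kept once. Symbols came from the GENCODE annotation of NCBIM37, and all 46 pathway genes were matched. Fragment numbers were recovered from the value of 1 fragment in genes with a single transcript (98.0 to 98.6% of low values within 0.1 of a whole number) and are approximate, since the length used was that of a gene's longest transcript. Promoter windows are from RefSeq (GRCm38.p6), with 7 of 8 genes matched, and were placed on NCBIM37 by exact match.

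The named genes are the 8 members, the pathway genes that passed the test, others of the list beside them, and the 5 nearest profiles. Members and lists were chosen with earlier results of these data known. Samples were grouped by their titles, and the alternatives were another pseudocount, other filters and scalings, a replicate block, no intensity trend, protein-coding genes only, and leaving out each sample. A few pathway genes enter the counts but are not reported here by name.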

Additional observations from a re-analysis of the deposited data

How the results depend on the processing

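The calls of *Slc19a1*, *Folr1* and *Folr2* were made under all 14 alternatives, with adjusted p-values from limma of at most 0.0034, 0.018 and 0.015. The log2 difference of *Slc19a1* ranged from 2.25 to 2.64. Leaving out 1 sample gave 842 to 1316 genes higher and 719 to 2127 lower over the whole table, 607 to 1733 lower by more than 2-fold, 1 to 2 pathway genes higher and 3 to 6 lower. *Mthfd2* ranged from -0.46 to 0.53, reversing to -0.05 without fragment sample 2 and to -0.46 without mural cell sample 3, and its balance with *Mthfd1* ranged from -0.060 (without mural cell sample 3, reversed) to 0.63. Reducing the genes tested to those with an FPKM of at least 5 left 948 genes lower by more than 2-fold, against 1493. Quantile normalization called 2 pathway genes higher, *Amt* and *Sardh*, and the cause was not tested.

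The samples of the groups share replicate numbers, but the labels do not say that a number marks an animal. Deviations from the group means correlated by 0.08, 0.02 and 0.05 for numbers 1, 2 and 3, and each sample correlated best with its own number. With the replicate block, 1206 genes were higher and 1651 lower, 1 of the 8 genes was higher and 2 were lower as without it, and 4 pathway genes were called lower, against 5.

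The depth of mural cell samples 2 and 3, approximately 1.04 and 1.05 M fragments, limits the values of *Folr1*, *Folr2*, *Mthfs*, *Slc46a1*, *Mthfd2* and *Shmt1* there.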

Other observations

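*Kcnj13*, a potassium channel gene of the choroid plexus list, was high in a single mural cell sample like *Slc46a1*, and was chosen after its values were seen. Its FPKM was 1.06, 18.7 and 1.19 in mural cell samples 1, 2 and 3 and 11.0, 7.26 and 3.81 in the fragments. The other choroid plexus markers, *Ttr* apart, lay at or below 3.01 in the mural cells.

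*Ftcd*, *Mat1a*, *Bhmt*, *Bhmt2* and *Gnmt*, genes of folate and methionine metabolism known from liver, were listed at 0 in all 3 mural cell samples and did not exceed an FPKM of 0.74 in any fragment sample.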
